A study of Mus musculus with 8 samples.

Results

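The 39 genes described here encode the enzymes and transporters of glucose breakdown, lactate handling, glycogen turnover and the pentose phosphate pathway. They were chosen by name as the genes of these pathways, leaving out the isoforms made mainly in skeletal muscle (Eno3, Pgam2 and Pygm), and all 39 were found among the 31053 genes of the deposited count table. The data were bulk RNA-seq of brown adipose tissue (BAT) from 4 WT and 4 Cd36KO mice of the C57BL6/J strain, labelled as 8 weeks old. Cd36 encodes a scavenger receptor that takes up fatty acids and oxidized lipids, and the comparison asks how its loss alters the BAT transcriptome. Cd36KO is all that the labels say of the genotype. The study ties the BAT transcriptome to a floxed Cd36 allele deleted by a Csf1r-driven Cre, a deletion meant for myeloid cells. It also reports making a germline Cd36 knockout. Its methods give a later age at sacrifice than the labels do, whereas its figure legend gives 8 weeks. The label names the stromal vascular fraction, the part of fat tissue left after adipocytes are removed, but adipocyte genes such as Adipoq and Plin1 were abundant in every library, with summed normalized counts of the 7 adipocyte markers between 33772 and 70831. The samples of a group are described in the study as separate mice.

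Glycolysis splits glucose into pyruvate in the cytosol, and lactate dehydrogenase interconverts pyruvate and lactate. The pentose phosphate pathway branches off at glucose 6-phosphate and yields NADPH, a reductant for fatty acid synthesis, and ribose. Glycogen is the store from which phosphorylase releases glucose units. Brown fat is known to take up much glucose when it produces heat, to store glycogen and to use glucose carbon for the glycerol backbone of its triglycerides.

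Library totals ran from 2679785 to 4097953 counts, with 23.4% to 32.1% of counts from mitochondrial genes. Cd36 itself stood at 2918 ± 454 normalized counts (SD, n = 4) in WT and 2087 ± 216 (SD, n = 4) in Cd36KO, a log2 fold change of -0.48 (SE 0.156, DESeq2 adjusted p = 0.0602), so most of its mRNA remained. Cd36 passed the adjusted p of 0.05 in 3 of 17 alternative fits, among them the fit without WT replicate 4 (DESeq2 adjusted p = 0.0066). Normalized counts are counts divided by the size factor of the library, which corrects for depth. The methods state that all mice were male, whereas Xist, a transcript of female cells, had 772 to 1588 counts in every library and the Y-linked gene Ddx3y had at most 3. One Cd36KO column of the table carries no replicate number and is called the unnumbered Cd36KO library. WT replicate 1 held the most skeletal muscle RNA: 26 muscle markers summed to 92516 normalized counts there, 1547 to 17302 in the other WT libraries and 574 to 12140 in Cd36KO. White fat markers summed to 642 in WT replicate 1, 4097 to 5086 in the other WT libraries and 562 to 1040 in Cd36KO. Of the 6 white fat markers tested, 4 fell in Cd36KO in DESeq2, which called 1.53% of all genes lower. edgeR, which called 0.143% of the genes it tested, called 3 white fat markers, and limma called none. Brown adipocyte markers summed to 17880 to 23380 in WT and 31871 to 40582 in Cd36KO, and 4 of the 11 tested rose in DESeq2, which called 1.42% of all genes higher, while edgeR and limma called none of them. In bulk tissue, fewer cells of a type and less RNA per cell cannot be told apart, and the part of these cell mixtures in the results below was not tested. Some fits below take a muscle or a white fat marker score as a covariate. The white fat score follows genotype except in WT replicate 1. Fits with it therefore lean on that library and cannot separate white fat content from genotype. All 26 muscle markers also had a lower mean in Cd36KO, so the muscle score is partly tied to genotype.

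Of the 39 genes, 32 had an adjusted p in the DESeq2 fit over all genes, and 3 of them rose in Cd36KO: Pkm, Ldhb and Pgls. None fell (adjusted p under 0.05 in each case). Over the 9619 genes tested, 1.42% rose and 1.53% fell, 2.95% in all. At an unadjusted p under 0.05, 9 of the 32 were higher (Gpi1, Pfkl, Pfkp, Pgam1, Eno1, Pkm, Ldhb, Pgls and Pygl) and 1 was lower (Pfkm), where 7.69% of all tested genes were higher and 7.88% lower. The fitted fold change was above 0 for 24 of the 32, against 49.2% of all tested genes, and its median was 0.28 on the log2 scale, against -0.01 over all genes. In the 6 numbered libraries, without WT replicate 1 and the unnumbered Cd36KO library, the median was 0.068. edgeR's quasi-likelihood test called 14 genes in all, 0.143% of those it tested, and none of the 39, although 9 of them, 8 higher, had an unadjusted p under 0.05. limma on the deposited log2 values called no gene, with 1542 genes and 8 of the 39, all higher, at an unadjusted p under 0.05. The 3 rises are therefore calls of DESeq2 alone among the 3 tools.

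**Figure D1:**
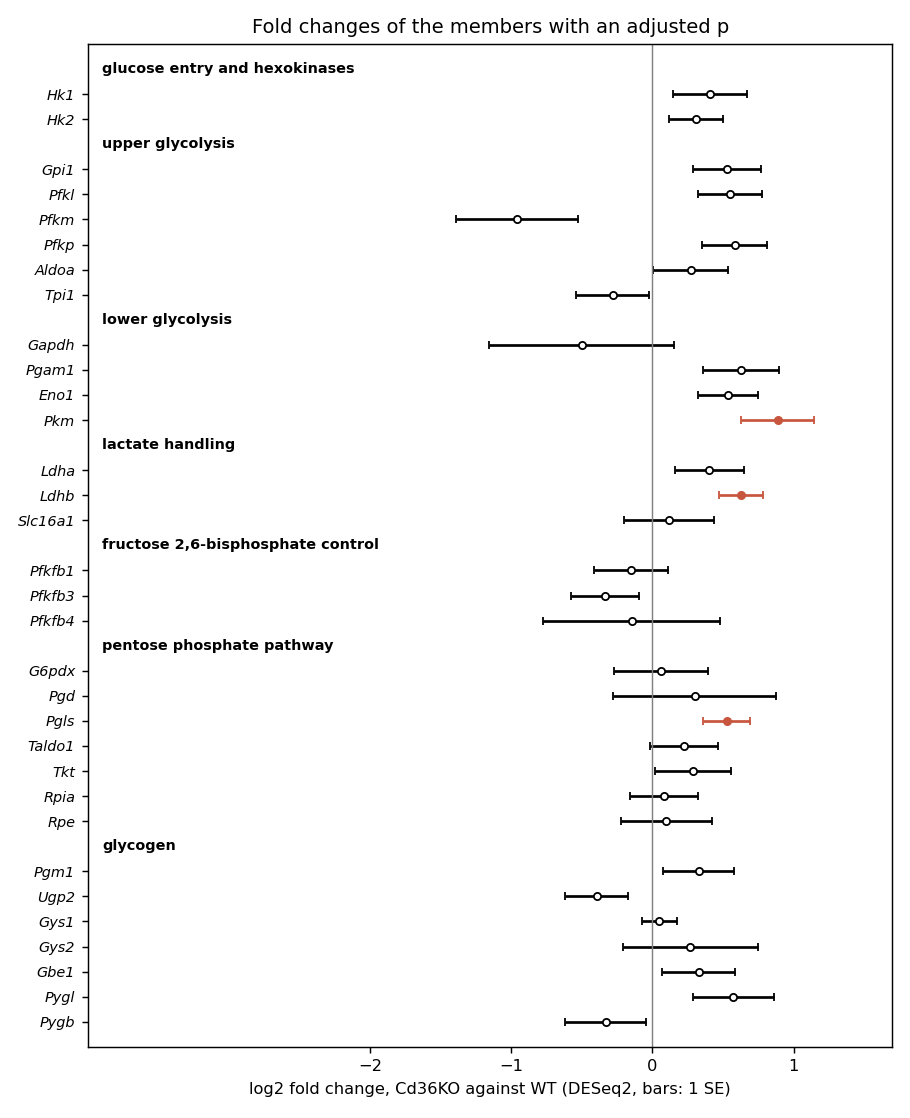
Log2 fold change of Cd36KO against WT (x axis, DESeq2) for the 32 genes with an adjusted p, grouped by pathway step, with bars of 1 SE. Filled red points mark Pkm, Ldhb and Pgls, the 3 genes past the adjusted p of 0.05, and 24 of the 32 points lie right of 0.

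The 7 genes without an adjusted p were left out by the filter on low mean counts that DESeq2 applies: Slc2a1, Hk3, Aldoc, Pgk1, Slc16a3, Pfkfb2 and Pgm2. Slc2a1, the basal glucose transporter GLUT1, had 2 to 14 raw counts per library. Hk3, a hexokinase of blood cells, was counted in 1 library only. Low counts of a gene here need not mean low mRNA, since Pgk1, which encodes phosphoglycerate kinase and is used by nearly all cells, had only 7 to 12 raw counts. Of the 75-base stretches in the annotated transcripts of Pgk1, 52.8% also occur in transcripts of other loci, and the figure was 34.9% for Pgam1, 23.0% for Eno1 and 22.6% for Gapdh. Reads of such stretches have more than 1 place of origin, and how the authors counted them was not tested, so levels of these genes are uncertain. Gapdh, the usual reference gene, had 28 to 280 raw counts.

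At the entry step, Hk2, the insulin-responsive hexokinase of fat and muscle, was the most abundant. It measured 1289, 941, 884 and 1258 normalized counts in WT replicates 1 to 4. In Cd36KO it measured 1748 in the unnumbered library and 1162, 1324 and 1180 in replicates 2 to 4. The groups overlapped, and the unnumbered Cd36KO library and Cd36KO replicate 3 stood above all WT libraries (log2 fold change 0.31, SE 0.193, DESeq2 adjusted p = 0.464). Without the unnumbered library the log2 fold change of Hk2 was 0.16. Hk2 provided 95.2% ± 1.73 (SD, n = 4) of the Hk1 plus Hk2 counts in WT and 94.9% ± 1.44 (SD, n = 4) in Cd36KO, so the balance of the hexokinases differed by less than the spread between libraries (exact two-sided permutation p = 0.83). Slc2a4, the insulin-responsive transporter GLUT4 of the related genes described below, stood at 766 ± 171 (SD, n = 4) in WT and 931 ± 111 (SD, n = 4) in Cd36KO (DESeq2 adjusted p = 0.483).

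In upper glycolysis 6 of 7 genes were tested and none passed. Aldoa, the main aldolase of this tissue, was the most abundant of the 39 both in normalized counts and per kilobase of exon. It measured 6985, 8062, 6430 and 11711 normalized counts in WT replicates 1 to 4, and 14123 in the unnumbered Cd36KO library and 7350, 6281 and 12249 in replicates 2 to 4. WT replicate 4 stood apart within WT and the unnumbered library and replicate 4 within Cd36KO, and the groups overlapped (log2 fold change 0.27, SE 0.269, DESeq2 adjusted p = 0.702). The log2 fold change of Aldoa was 0.059 without the unnumbered library and 0.48 without WT replicate 4.

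The 3 phosphofructokinase genes encode the committing step of glycolysis, and none of them passed. Pfkl, the liver-type subunit, measured 411, 365, 443 and 457 in WT, and 783 in the unnumbered Cd36KO library and 448, 431 and 785 in replicates 2 to 4. Replicates 2 and 3 thus lay within the WT range while the other Cd36KO libraries stood well above it (log2 fold change 0.55, SE 0.228, DESeq2 adjusted p = 0.186). Pfkp, the platelet type, had a log2 fold change of 0.58 (SE 0.232, DESeq2 adjusted p = 0.159). For Pfkp it was 0.31 in the 6 numbered libraries and 1.16 with the white fat score, where it was called (DESeq2 adjusted p = 0.0341).

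Pfkm, the muscle-type subunit, measured 357, 119, 48.2 and 138 in WT, and 95.8 in the unnumbered Cd36KO library and 69.0, 108 and 67.9 in replicates 2 to 4. WT replicate 1, the library with the most muscle RNA, was the highest, and WT replicate 3, with the least muscle RNA among WT, was the lowest (log2 fold change -0.96, SE 0.435, DESeq2 adjusted p = 0.239). Without WT replicate 1 the log2 fold change of Pfkm was -0.26, and with a muscle score as a covariate it was 0.16. Without WT replicate 3 it was -1.26 and passed (DESeq2 adjusted p = 0.0498). With the white fat score, a fit that leans on WT replicate 1, it was -2.30 and passed (DESeq2 adjusted p = 0.00053). The muscle isoforms Eno3, Pgam2 and Pygm, kept out of the 39 genes, were also highest in WT replicate 1 and lowest within WT in replicate 3, but within Cd36KO they were lowest in replicate 3, where Pfkm was highest. Eno3 measured 768, 145, 18.8 and 270 in WT, and 98.0 in the unnumbered Cd36KO library and 17.3, 10.2 and 19.8 in replicates 2 to 4. All 3 muscle isoforms and all 26 muscle markers had a lower mean in Cd36KO, and none passed the adjusted p.

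**Figure D2:**
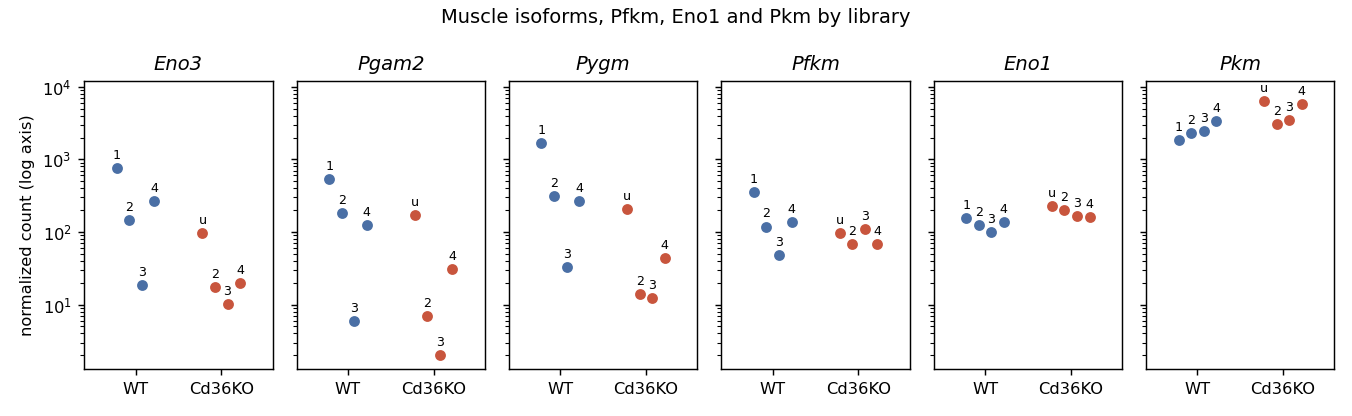
Normalized counts (log axis) of the muscle isoforms Eno3, Pgam2 and Pygm and of Pfkm, Eno1 and Pkm in each WT (blue) and Cd36KO (red) library, numbered by replicate, with u for the unnumbered library. Eno3 spans 18.8 to 768 in WT with replicate 1 highest, as for Pfkm, whereas for Pkm WT replicate 1 is the lowest library.

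In lower glycolysis Pkm rose. The gene lies at chr9:59656368-59679375 of GRCm38 (GENCODE M21), and it encodes pyruvate kinase M, which makes pyruvate and ATP in the last step. It measured 1852, 2319, 2477 and 3403 normalized counts in WT replicates 1 to 4. In Cd36KO it measured 6367 in the unnumbered library and 3041, 3454 and 5718 in replicates 2 to 4. The groups overlapped at WT replicate 4, and the unnumbered library and replicate 4 lay far above the other Cd36KO libraries. The log2 fold change was 0.89 (SE 0.257, DESeq2 adjusted p = 0.0304), with edgeR and limma at adjusted p = 0.140 and 0.168. The call was lost without the unnumbered library (log2 fold change 0.70, DESeq2 adjusted p = 0.184), without Cd36KO replicate 4 (0.77, DESeq2 adjusted p = 0.157), without WT replicate 2 (0.85, DESeq2 adjusted p = 0.148) and without WT replicate 3 (0.88, DESeq2 adjusted p = 0.0946). With a muscle score as a covariate the log2 fold change of Pkm was 1.08 (DESeq2 adjusted p = 0.0310), and with a white fat score it was 1.55. In the 6 numbered libraries it was 0.58 (DESeq2 adjusted p = 0.249). Gene-level counts cannot separate the M1 and M2 splice forms.

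Eno1, the enolase of most tissues, was the only gene of lower glycolysis whose groups did not overlap. It measured 158, 123, 101.2 and 138 in WT, and 230 in the unnumbered Cd36KO library and 201, 165 and 162 in replicates 2 to 4. Every Cd36KO library thus lay above every WT library, but the difference missed the adjusted threshold (log2 fold change 0.53, SE 0.211, DESeq2 adjusted p = 0.154). Among the 30 genes that averaged 50 normalized counts or more, the Cd36KO libraries all lay above WT for 3 (Eno1, Ldhb and Pgls) and all below for none. Over all 5528 genes at that level the shares were 6.91% above and 3.96% below.

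Of the lactate genes Ldhb rose and Ldha did not pass. Ldhb encodes the heart-type subunit of lactate dehydrogenase, Ldha the muscle-type subunit. The Ldhb gene lies at chr6:142490249-142507957. Ldhb measured 506, 555, 480 and 678 normalized counts in WT, and 914 in the unnumbered Cd36KO library and 817, 927 and 771 in replicates 2 to 4. The groups did not overlap, and the Cd36KO libraries lay close together. The log2 fold change was 0.63 (SE 0.159, DESeq2 adjusted p = 0.00937), with edgeR and limma at adjusted p = 0.126 and 0.128. The call was lost without WT replicate 2 (DESeq2 adjusted p = 0.0867), WT replicate 3 (DESeq2 adjusted p = 0.0782), the unnumbered library (DESeq2 adjusted p = 0.0694) or Cd36KO replicate 3 (DESeq2 adjusted p = 0.0669), with log2 fold changes from 0.57 to 0.74 over all 8 omissions. With a muscle or a white fat score as a covariate the log2 fold change of Ldhb was 0.67 and 0.78 and missed the threshold (DESeq2 adjusted p = 0.0996 and 0.0609). Among the 75-base stretches of Ldhb transcripts, 12.6% also occur at 1 other locus.

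Ldha measured 1156, 1480, 1253 and 1791 in WT, and 2485 in the unnumbered Cd36KO library and 1451, 1198 and 2377 in replicates 2 to 4. Here Cd36KO replicates 2 and 3 lay within WT and the other libraries above it (log2 fold change 0.40, SE 0.245, DESeq2 adjusted p = 0.443). Without the unnumbered library the log2 fold change of Ldha was 0.24. The log2 ratio of Ldhb to Ldha therefore ranged from -1.62 to -0.37 in Cd36KO but only from -1.41 to -1.19 in WT, with no difference between the means beyond that spread (exact two-sided permutation p = 0.429). Mean normalized counts were 1420 for Ldha and 555 for Ldhb in WT, and 1878 and 857 in Cd36KO. Per kilobase of exon, Ldha stood at 429 and Ldhb at 353 normalized counts in WT, and at 567 and 546 in Cd36KO. Levels per kilobase depend on where along a transcript the reads lie, which is not known here. The lactate transporter Slc16a1 (MCT1) stood at 719 ± 415 (SD, n = 4) in WT and 781 ± 165 (SD, n = 4) in Cd36KO (DESeq2 adjusted p = 0.912). Slc16a1 was called lower with the white fat score as a covariate, and higher in the 6 numbered libraries, with and without a replicate block.

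**Figure D3:**
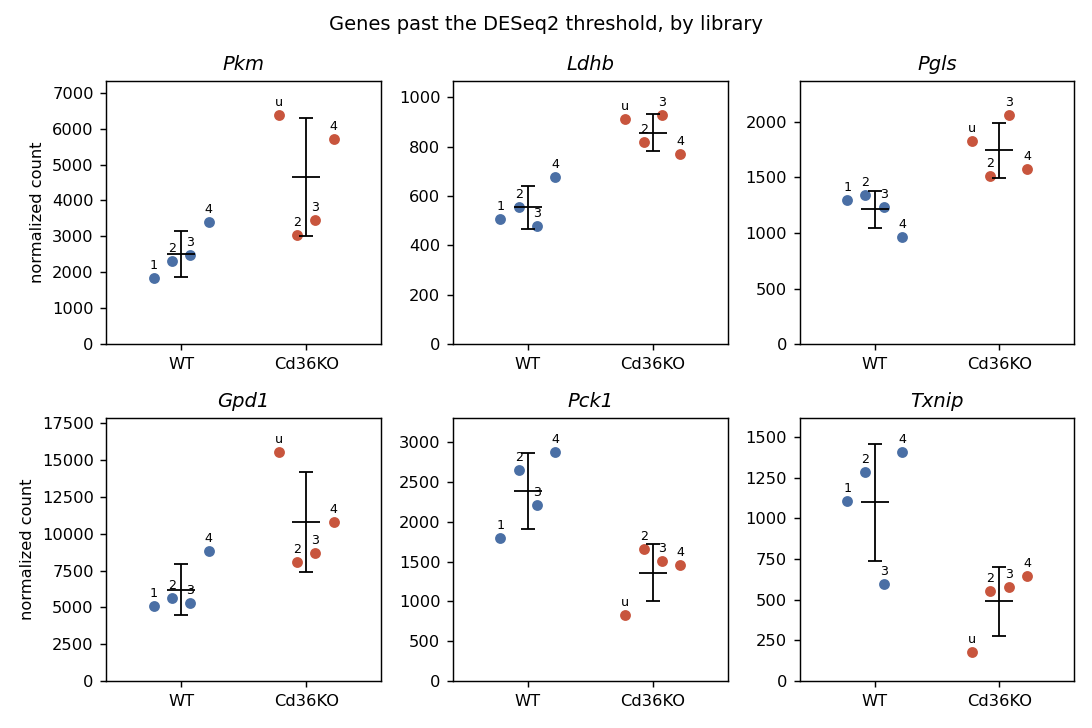
Normalized counts (y axis, from 0) of the 3 genes of the list and the 3 related genes past the DESeq2 threshold, in each WT (blue) and Cd36KO (red) library, labelled by replicate number or u for the unnumbered library, with the mean and SD in black. The groups do not overlap for Ldhb, Pgls and Pck1, and overlap for Pkm, Gpd1 and Txnip.

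In the pentose phosphate pathway Pgls rose, and the other 6 genes did not pass. Pgls encodes 6-phosphogluconolactonase, the second enzyme of the oxidative branch, and lies at chr8:71592176-71601092. It measured 1300, 1346, 1236 and 967 normalized counts in WT, and 1827 in the unnumbered Cd36KO library and 1517, 2059 and 1577 in replicates 2 to 4. Every Cd36KO library lay above every WT library (log2 fold change 0.53, SE 0.165, DESeq2 adjusted p = 0.0488). edgeR and limma gave adjusted p = 0.193 and 0.180. The call lay at the threshold and held in only 2 of the 8 fits that left out a library, those without WT replicate 1 (DESeq2 adjusted p = 0.0450) and without Cd36KO replicate 2 (DESeq2 adjusted p = 0.0388). It was lost without WT replicate 2, 3 or 4, the unnumbered library or Cd36KO replicate 3 or 4 (DESeq2 adjusted p = 0.0590 to 0.198). Over all 8 omissions the log2 fold change of Pgls ranged from 0.43 to 0.59. With a muscle or a white fat score as a covariate the log2 fold change of Pgls was 0.53 and 0.35 (DESeq2 adjusted p = 0.262 and 0.498). Of the 75-base stretches of Pgls transcripts, 18.1% lie where another gene, Fam129c, overlaps it.

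Its neighbours in the oxidative branch, which yield NADPH, spread more widely. G6pdx, the first and rate-limiting enzyme, measured 95.7, 237, 209 and 348 in WT, and 246 in the unnumbered Cd36KO library and 153, 202 and 325 in replicates 2 to 4. The groups overlapped almost fully (log2 fold change 0.06, SE 0.333, DESeq2 adjusted p = 0.964). With the white fat score the log2 fold change of G6pdx was 1.44 and was called (DESeq2 adjusted p = 0.0263). That fit leans on WT replicate 1, the lowest library for G6pdx. Pgd, the next dehydrogenase, varied 3.98-fold within WT and 3.60-fold within Cd36KO. Tkt, the transketolase and the most abundant gene of the pathway in normalized counts, stood at 4775 ± 1304 (SD, n = 4) in WT and 5816 ± 2114 (SD, n = 4) in Cd36KO (log2 fold change 0.28, SE 0.270, DESeq2 adjusted p = 0.678). The log2 fold change of Tkt was 0.046 without Cd36KO replicate 4, 0.11 without WT replicate 1 and 0.46 without Cd36KO replicate 3. With the white fat score Tkt was called, at 1.18 (DESeq2 adjusted p = 0.0226). The fitted fold changes of all 7 genes were above 0, from 0.06 to 0.53. That sign was not shared by all 7 in fits without single libraries: 5 of 7 were above 0 without WT replicate 1, and 6 of 7 without WT replicate 3, the unnumbered library or Cd36KO replicate 4. In the 6 numbered libraries 3 were above 0 and 4 below, or 4 above and 3 below with a replicate block.

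The genes of fructose 2,6-bisphosphate, the activator of phosphofructokinase, gave no call. Pfkfb3, the most abundant, measured 799, 1110, 1210 and 1982 in WT, and 1106 in the unnumbered Cd36KO library and 924, 1094 and 911 in replicates 2 to 4. The Cd36KO libraries all lay inside the WT range (log2 fold change -0.34, SE 0.242, DESeq2 adjusted p = 0.532). Without WT replicate 4 the log2 fold change of Pfkfb3 was -0.044, and without WT replicate 1 it was -0.51. With a white fat score as a covariate the log2 fold change of Pfkfb3 was 0.46.

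None of the 7 glycogen genes tested passed. Pygl, the liver-type phosphorylase, measured 1655, 3122, 2686 and 3567 in WT, and 5667 in the unnumbered Cd36KO library and 2887, 2531 and 5298 in replicates 2 to 4. As for Pfkl and Ldha, Cd36KO replicates 2 and 3 lay within WT and the other Cd36KO libraries above it (log2 fold change 0.57, SE 0.287, DESeq2 adjusted p = 0.309). For Pygl the log2 fold change was 0.38 without the unnumbered library, 0.20 in the 6 numbered libraries and 1.57 with the white fat score, where it was called (DESeq2 adjusted p = 0.0015). Gys1, the muscle-type glycogen synthase, varied little: it measured 1283, 1288, 1418 and 1198 in WT, and 1418 in the unnumbered Cd36KO library and 1274, 1264 and 1403 in replicates 2 to 4. Its log2 fold change was 0.05 (SE 0.123, DESeq2 adjusted p = 0.909). Gys2, the liver-type synthase, provided 1.81% ± 1.04 (SD, n = 4) of the Gys1 plus Gys2 counts in WT and 2.10% ± 0.971 (SD, n = 4) in Cd36KO.

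**Figure D4:**
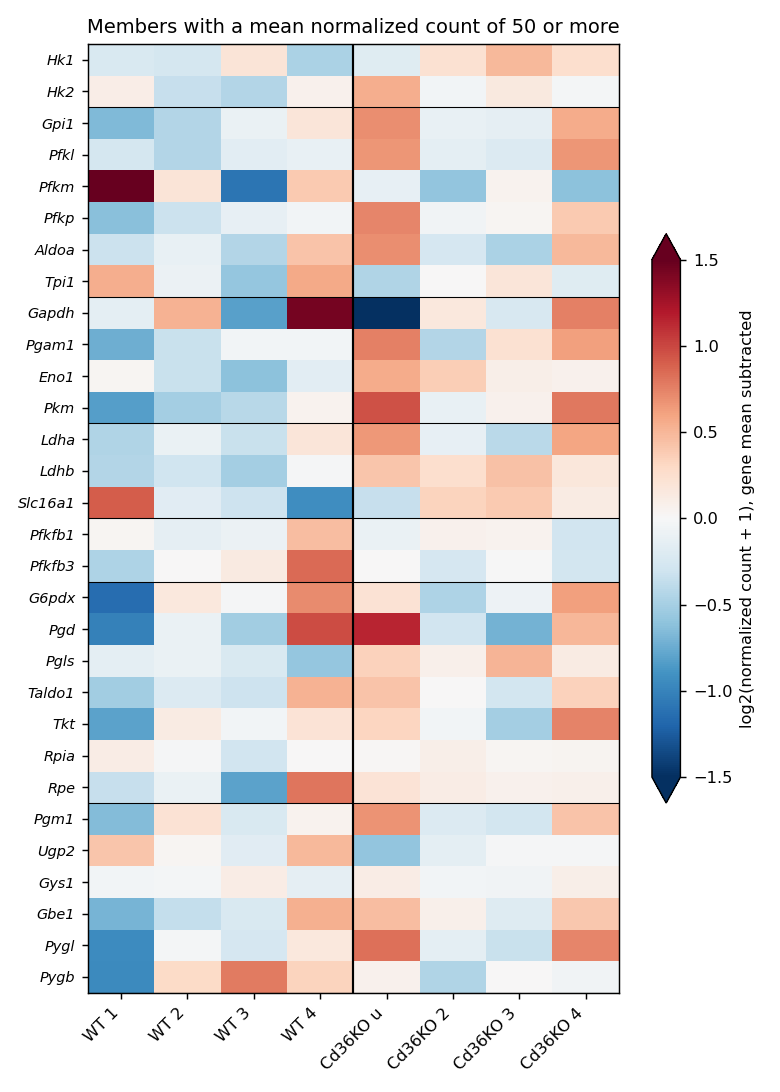
Log2(normalized count + 1) of the 30 genes that averaged 50 normalized counts or more (rows, with lines between pathway steps) in each library (columns), with the mean of each gene subtracted and colours capped at 1.5 in each direction. The unnumbered Cd36KO library and Cd36KO replicate 4 are both above replicates 2 and 3 for 15 of the 30 genes, and WT replicate 4 is the highest WT library for 19.

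The 39 genes varied among libraries of 1 genotype. Of the 30 genes that averaged 50 or more, the unnumbered Cd36KO library and Cd36KO replicate 4 both exceeded replicates 2 and 3 for 15 (50.0%), where 24.5% of all 5528 genes at that level did. Both fell below replicates 2 and 3 for 3, where 19.6% of all genes did. The 15 genes were Gpi1, Pfkl, Pfkp, Aldoa, Pgam1, Pkm, Ldha, G6pdx, Pgd, Taldo1, Tkt, Pgm1, Gys1, Gbe1 and Pygl. Ldhb, Pgls and Eno1, whose groups did not overlap, were not among them. Within WT, replicate 4 was highest for 19 of the 30 (63.3%), where it was highest for 36.3% of all genes. These libraries were grouped after their values were seen, so the counts are a description. The 39 genes together took 1.53% ± 0.257 (SD, n = 4) of the counts of non-mitochondrial genes in WT and 1.90% ± 0.428 (SD, n = 4) in Cd36KO (exact two-sided permutation p = 0.2), and 5 of them (Aldoa, Tkt, Pkm, Pygl and Taldo1) made up 54.1% to 66.4% of that sum. The share was 2.25% in the unnumbered Cd36KO library and 2.28% in replicate 4, but 1.59% and 1.47% in replicates 2 and 3, which lay within the WT range of 1.28% to 1.86%. The erythroid markers were highest in the unnumbered library, at 16259 summed normalized counts against 4836 to 8770 in the other Cd36KO libraries.

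The balance between paralogs that catalyse the same step does not depend on the scaling of a library. Of 8 such ratios none passed after adjustment over the 8 (lowest adjusted p = 0.457, exact two-sided permutation tests with a smallest possible p of 0.0286). At least 5 of the 8 would have to reach that p for any to pass, so these tests could hardly show a difference. The ratio of Pygl to the brain-type phosphorylase Pygb was 0.76 higher on the log2 scale in Cd36KO (exact permutation p = 0.114), and that of Slc16a1 to the export transporter Slc16a3 was 2.91 higher (exact permutation p = 0.0571) or, with 5 in place of 0.5 added to each count, 1.33 higher, with Slc16a3 at 0 counts in Cd36KO replicates 2 and 3. For Pfkm to Pfkl the difference, Cd36KO minus WT, was -1.12 (exact permutation p = 0.171), and WT replicate 1 was the highest library at -0.20. Without that library the difference was -0.63.

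**Figure D5:**
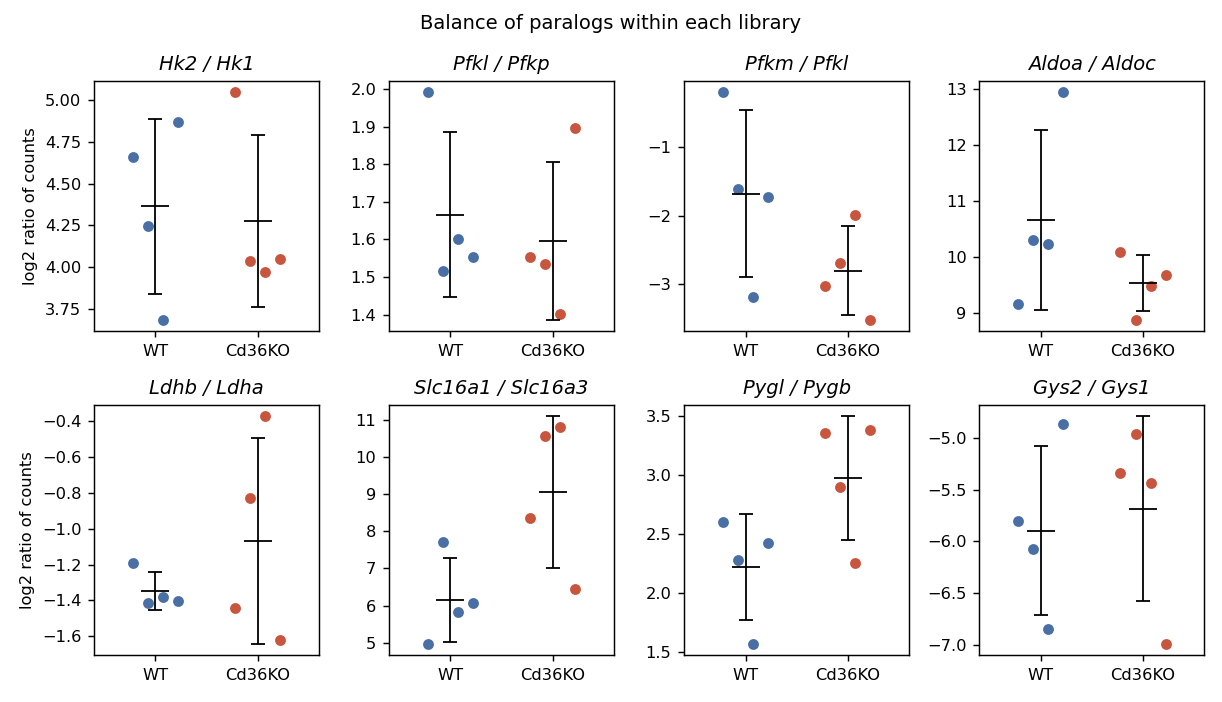
Log2 ratio of the counts of paralogs for the same step, with 0.5 added to each count, in each WT (blue) and Cd36KO (red) library, with the mean and SD in black. All 8 pairs overlap between genotypes, and Ldhb over Ldha runs from -1.62 to -0.37 in Cd36KO against -1.41 to -1.19 in WT.

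A further 64 genes around these pathways were followed: other isoforms, glycogen regulators, gluconeogenic and glycerol 3-phosphate enzymes, and regulators of carbohydrate genes. Of these 58 had counts and 47 were tested, and 1 rose (Gpd1) and 2 fell (Pck1 and Txnip) in DESeq2. Over all tested genes 1.42% rose and 1.53% fell. At an unadjusted p under 0.05, 5 of the 47 were higher and 5 lower in DESeq2, where 7.69% of all tested genes were higher and 7.88% lower. The median log2 fold change of the related genes was -0.02, against -0.01 over all genes. edgeR and limma called none of them. Gpd1 makes glycerol 3-phosphate from a glycolytic intermediate. It measured 5089, 5636, 5297 and 8800 in WT, and 15556 in the unnumbered Cd36KO library and 8055, 8686 and 10787 in replicates 2 to 4. Only WT replicate 4 reached into the Cd36KO range (log2 fold change 0.80, SE 0.240, DESeq2 adjusted p = 0.0387). The call on Gpd1 held without WT replicate 4 or Cd36KO replicate 2 or 3, and was lost without any of the other 5 libraries (DESeq2 adjusted p = 0.0623 to 0.235). For Gpd1 the log2 fold change was 0.48 in the 6 numbered libraries (DESeq2 adjusted p = 0.324) and 1.31 with the white fat score (DESeq2 adjusted p = 0.00725).

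Pck1, the enzyme of glyceroneogenesis in fat, measured 1797, 2648, 2209 and 2876 in WT, and 833 in the unnumbered Cd36KO library and 1652, 1502 and 1462 in replicates 2 to 4. All Cd36KO libraries lay below all WT libraries (log2 fold change -0.81, SE 0.226, DESeq2 adjusted p = 0.0231). The call on Pck1 was lost without WT replicate 2 or 3, the unnumbered library or Cd36KO replicate 4 (DESeq2 adjusted p = 0.0612 to 0.149). It was also lost with the white fat score (log2 fold change -0.52, DESeq2 adjusted p = 0.424).

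Txnip, a glucose-induced inhibitor of glucose uptake, measured 1105, 1284, 594 and 1408 in WT, and 175 in the unnumbered Cd36KO library and 552, 580 and 648 in replicates 2 to 4. WT replicate 3 lay inside the Cd36KO range (log2 fold change -1.17, SE 0.341, DESeq2 adjusted p = 0.0316). Without the unnumbered library the log2 fold change of Txnip was -0.89 (DESeq2 adjusted p = 0.0537), and the call was also lost without WT replicate 1, 2 or 4 or Cd36KO replicate 2 (DESeq2 adjusted p = 0.158 to 0.308). With the muscle and the white fat score Txnip missed the threshold as well (DESeq2 adjusted p = 0.345 and 0.284).

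The promoters of 2 called genes of the list, and of Txnip for its carbohydrate response pattern, are shown to place these genes in sequence, read from RefSeq on GRCm38.p6 as up to 250 bases before the start site, 5′ to 3′ on the strand of the gene. Capitals mark matches on either strand to GCGTG, a core that hypoxia-inducible factors can bind, or to the carbohydrate response pattern, a pair of CACGNG motifs separated by 5 bases, to which the glucose-responsive factor encoded by Mlxipl binds. Ldhb lies at chr6:142507958-142508207 on the minus strand, Pgls at chr8:71591934-71592175 on the plus strand without 8 bases annotated as exon, and Txnip at chr3:96557707-96557956 on the plus strand.
Ldhb: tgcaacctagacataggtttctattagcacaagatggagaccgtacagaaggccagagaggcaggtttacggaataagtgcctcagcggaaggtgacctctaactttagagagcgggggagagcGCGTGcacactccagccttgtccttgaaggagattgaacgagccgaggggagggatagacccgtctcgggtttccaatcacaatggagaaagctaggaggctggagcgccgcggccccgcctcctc
Pgls: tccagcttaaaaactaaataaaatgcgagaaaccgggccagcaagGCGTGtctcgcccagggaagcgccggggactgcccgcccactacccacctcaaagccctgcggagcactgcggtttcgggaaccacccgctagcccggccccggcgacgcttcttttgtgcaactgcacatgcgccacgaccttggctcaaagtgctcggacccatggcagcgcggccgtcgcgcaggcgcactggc
Txnip: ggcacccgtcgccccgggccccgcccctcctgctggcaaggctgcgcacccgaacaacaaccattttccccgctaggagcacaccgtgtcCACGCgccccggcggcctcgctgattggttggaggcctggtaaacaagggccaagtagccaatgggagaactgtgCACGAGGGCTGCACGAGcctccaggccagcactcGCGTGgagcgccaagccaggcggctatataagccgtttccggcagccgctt
Among the 57 promoters of 38 of the 39 genes, none held the carbohydrate response pattern, which 15 of 32851 mouse promoters (0.0457%) held, and Txnip was among those 15. GCGTG was in 30 of the 57 (52.6%) and in 28.2% of all promoters. The form ACGTG was in 22 of the 57 (38.6%) and in 16.6% of all. CACGTG, the E-box, which contains ACGTG, was in 5 of the 57 (8.77%) and in 6.02% of all, and the cyclic AMP element TGACGTCA was in 1 (1.75%), that of Ldha, and in 1.55% of all. These are matches of letters with base composition not matched between the sets. Pkm is not shown because the windows before its start sites overlap annotated exons; its promoters held ACGTG and not GCGTG.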

How the data were processed

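Total RNA of BAT from 4 WT and 4 Cd36KO samples was sequenced with single-end reads of 75 cycles after a digital mRNA-seq library preparation. The deposited tables hold raw counts per gene and log2 values. The methods name bbduk, STAR 2.6.0a and HTSeq-count 0.9.1, whereas the submitters' processing notes name Trimmomatic, HISAT2 and DESeq2 with GRCm38 (mm10). How multiply mapping reads, strand and molecular identifiers were handled is not given in the sources used here, nor is where along a transcript the reads lie, which affects levels per kilobase. The log2 values deposited by the authors equalled log2(count divided by size factor + 1).

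Gene counts as deposited by the authors (2679785 to 4097953 per library) were fitted with DESeq2 1.42.0 (Wald test, genotype only, all genes with any count, Benjamini-Hochberg adjusted p under 0.05), after the study's methods. edgeR 4.0.16 and limma 3.58.1 were alternatives. The fits were tested on simulated data. Symbols were matched with GENCODE M21, and per-kilobase levels use all annotated exons merged. Where 2 rows shared a symbol, as for Aldoa, the row with more counts was taken. Paralog ratios were compared by exact two-sided permutation over the 70 arrangements of 8 libraries. The members and lists were chosen with earlier results of these data known. Genes named in full were members and related genes past the adjusted threshold, and members whose groups did not overlap and whose mean was 50 normalized counts or more. The most abundant gene of each pathway step was also named, as were Slc2a1, Hk2, Pfkl, Pfkm, Pfkp, Pkm, Ldha, Ldhb, Pfkfb3, G6pdx, Gys1, Gys2 and Pygl. The muscle and white fat scores are means of the log2 CPM of the marker lists, computed with a prior count of 2. Marker lists for macrophage, endothelial and stromal progenitor cells gave 1, 0 and 0 calls, the 1 being lower. Same-numbered WT and Cd36KO libraries deviated from their group means with correlations of -0.07, 0.24 and 0.11 for replicates 2 to 4, so the numbers were not taken as pairs.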

Additional observations from a re-analysis of the deposited data

Results flagged for a closer look

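In groups of 4 libraries a value was singled out when its gap to the nearest other library, divided by the range of the group, exceeded Dixon's 95% critical value. Of 88 groups tested 3 met this, where chance gives about 1 in 20, or 4.4. Txnip in the unnumbered Cd36KO library stood at 7.46 on the scale log2(normalized count + 1), far below the other Cd36KO libraries at 9.11 to 9.34. In the same library the log2 ratio of Hk2 to Hk1 was 5.05, against 3.97 to 4.05 in the other Cd36KO libraries. In WT replicate 1 the log2 ratio of Ldhb to Ldha was -1.19, against -1.41 to -1.38 in the other WT libraries.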

How the results depend on the processing

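Pkm, Ldhb, Pgls, Gpd1, Pck1 and Txnip kept their sign in every alternative, and with TMM factors all 6 kept their call. With a minimum of 10 counts in 4 libraries, 291 genes were called, and Pgls lost its call (DESeq2 adjusted p = 0.0764). With edgeR 14 genes were called (4 higher, 10 lower), with limma 0, and neither called a member or related gene (0 higher, 0 lower). Without independent filtering 171 genes were called (73 higher), with 1 member (Ldhb), 0 related genes higher and 1 lower (Pck1), and Pkm, Pgls, Gpd1 and Txnip lost theirs (DESeq2 adjusted p = 0.0537, 0.0848, 0.0680 and 0.0559). With the muscle score 188 genes were called (65 higher), with 1 member (Pkm), 2 related genes higher and 1 lower. With the white fat score 547 genes were called (432 higher), with 10 members higher (G6pdx, Gbe1, Gpi1, Pfkp, Pgam1, Pgm1, Pkm, Pygb, Pygl and Tkt), 2 lower (Pfkm and Slc16a1), 2 related genes higher and 0 lower, and a median log2 fold change of members of 0.75. This score follows genotype except in WT replicate 1, so calls gained or lost with it lean on that library. The log2 fold change reversed for Pfkm with the muscle score (0.16) and for Pfkfb3 with the white fat score (0.46).

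Leaving out 1 library gave 69 (without WT replicate 2) to 507 (without WT replicate 4) genes called, 20 (without the unnumbered library) to 328 higher (without WT replicate 4) and 42 to 236 lower. Members called higher ranged from 0 to 4 and lower from 0 to 1, related genes higher from 0 to 3 and lower from 0 to 2, and the members' median from 0.12 to 0.41. G6pdx ranged from -0.19 to 0.36. The log2 ratio differences ranged from -0.35 to 0.080 for Hk2 to Hk1, from -0.17 to 0.040 for Pfkl to Pfkp and from -0.10 to 0.65 for Gys2 to Gys1. The causes were not tested.

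A replicate block on the 6 numbered libraries gave 32 genes higher and 187 lower, 1 member higher (Slc16a1), 0 related genes higher and 1 lower, and a median of members of 0.079. It reversed Aldoa (-0.031), G6pdx (-0.26), Tkt (-0.025) and the ratio of Pfkl to Pfkp (0.054). Under the block the log2 fold changes were 0.54 for Pkm, 0.51 for Gpd1, 0.56 for Ldhb, 0.54 for Pgls and -0.80 for Txnip, all without a call (DESeq2 adjusted p = 0.0742, 0.116, 0.236, 0.176 and 0.0528), 0.30 for Pfkp and 0.13 for Pygl, and the difference in the Pfkm to Pfkl ratio was -0.56. The same 6 libraries without the block, a fit added after seeing the data, gave 48 genes higher and 214 lower, 1 member higher, 0 related genes higher, a median of 0.068, Aldoa at -0.016 and G6pdx at -0.22.

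DESeq2's filter on low mean counts left 7 of the 39 genes without an adjusted p, and with that filter off all 39 had one.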
